A study of Mus musculus with 6 samples.

Results

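Inhibitory receptors and phosphatases set the threshold at which a B cell responds to antigen. The 10 genes described here are the receptor genes Cd22, Siglecg, Cd72, Fcgr2b, Lair1, Pirb and Pecam1 and the phosphatase genes Ptpn6, Inpp5d and Ptpn22. They were chosen by gene symbol, with earlier results of these data known, and all 10 were found among the 16511 genes of the deposited gene table. RNA was sequenced from splenic B lymphocytes of mice, with 3 libraries labelled GPR40-WT (here WT) and 3 labelled GPR40-KO (here KO). GPR40, encoded by Ffar1, senses free fatty acids at the cell surface. The enrichment worked on magnetic beads by negative selection, in which the other spleen cells are bound and B cells pass untouched. The series' design text writes GPR40-BKO for the second group. The labels name no strain, age, treatment, targeting allele or Cre driver, and do not say whether a library came from 1 animal or from pooled animals.

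The targeted gene went against the labels. Ffar1 had 273, 392 and 304 counts in KO replicates 1, 2 and 3 by label and 0 counts in each library labelled WT. Directions below are therefore those of the labels, which Ffar1 contradicts. Of the B cell markers, Cd79a and Cd79b, the signalling chains of the B cell receptor, were abundant in all 6 libraries. Their log2 fold changes, KO minus WT by label, were 0.35 ± 0.16 and 0.25 ± 0.15 (SE), neither past the threshold (edgeR adjusted p = 0.190 and 0.305). The bearing of the Ffar1 values on the results below was not tested. Marker RNA of other cell types was present in all libraries. The summed CPM (counts scaled to library size) of 18 macrophage and monocyte markers was 3315 to 9050 in the libraries labelled WT and 1528 to 2854 in those labelled KO. The sum of 15 neutrophil markers was 798 to 6586 against 139 to 290.1 CPM, and that of 11 pan-B genes was 8046 to 11279.9 against 15371 to 16864 CPM. Those 3 sums did not overlap between the labels, whereas the sum of 13 T and NK cell markers (62.5 to 348 against 61.7 to 107.6 CPM) and that of 10 erythroid markers (664 to 8242 against 330 to 1549 CPM) did. In bulk RNA, fewer cells of a type and less RNA per cell cannot be told apart.

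Most of the receptors carry an immunoreceptor tyrosine-based inhibitory motif, or ITIM, in the part of the protein inside the cell. When the kinase Lyn phosphorylates the tyrosine of the motif, the tyrosine phosphatase SHP-1 (Ptpn6) or the lipid phosphatase SHIP-1 (Inpp5d) docks there and removes phosphate from activating signalling molecules. CD22 and Siglec-G bind sialic acids on cells and proteins, CD72 binds semaphorin 4D and FcγRIIB binds the Fc part of IgG in immune complexes. LAIR-1 binds collagen, PIR-B binds MHC class I molecules and PECAM-1 binds itself on neighbouring cells. Ptpn22 encodes a tyrosine phosphatase that works with the kinase Csk on Src and Syk family kinases.

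The coding sequence around ITIM tyrosines is shown for each receptor because it is the feature that joins these receptors to the phosphatases. Each line holds 6 codons, 5′ to 3′ on the coding strand, read from the transcript annotation GENCODE M21 of the build GRCm38, with the tyrosine codon in capitals. The first codon stands for isoleucine, leucine or valine and the last for leucine, apart from Pecam1, whose window ends in a valine codon, and the second window of Pirb, which begins with a serine codon. The windows shown are exonic and lie within the last 150 codons, or within the first 150 for Cd72, whose protein has its amino end inside the cell.
Cd22, codon 783 of 868: gttagtTATgccatcttg
Cd22, codon 843 of 868: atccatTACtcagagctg
Cd22, codon 863 of 868: gtagacTATgtgaccctc
Siglecg, codon 659 of 688: ctccacTATgctgctctc
Cd72, codon 7 of 354: atcacgTATgcagacctg
Fcgr2b, codon 319 of 340: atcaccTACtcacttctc
Lair1, codon 228 of 263: gtgacgTATatccagctg
Pirb, codon 794 of 841: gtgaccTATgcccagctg
Pirb, codon 824 of 841: agtgtaTATgctactctg
Pecam1, codon 679 of 727: gtagaaTACacagaagtg

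A window that begins with an isoleucine, leucine or valine codon and ends in a leucine codon, here called narrow, was found in 6 of the 7 receptor genes, and in 7.99% of 21504 protein-coding genes when the last 150 codons were searched and 6.97% when the first 150 were. Cd22 held 3 such windows, at chr7:30867494-30867511, chr7:30866600-30866617 and chr7:30866540-30866557 on the minus strand. The Fcgr2b window lies at chr1:170961071-170961088 on the minus strand, and that of Lair1 at chr7:4009790-4009807 on the minus strand. Cd72 held a second narrow window, at codon 95, which is not shown, and neither are the other wider windows, which may begin with serine or end in isoleucine or valine. A match of codons is a description and does not show that a tyrosine is phosphorylated.

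Of the 10 genes, 8 differed between the labels at an adjusted p of at most 0.05, against 9.37% of all 12234 genes tested. The receptors Cd22, Siglecg, Cd72, Fcgr2b and Pecam1 and the phosphatases Ptpn6 and Ptpn22 had higher levels by label KO, where 4.55% of all tested genes were called higher. Lair1 was lower there, where 4.81% were called lower, and Inpp5d and Pirb did not pass the test. The median log2 fold change of the 10 genes was 0.99, beside 0.01 for all tested genes. CPM did not overlap between the labels for 9 of the 10, against 33.4% of all tested genes. With the replicate number as a block 8 were called again, while the count over all genes rose from 1146 to 2535, or 20.7%, with 7.96% called higher and 12.8% lower. The share of all tested genes called was 5.65%, 16.2% and 4.22% without WT replicates 1, 2 and 3 and 3.02%, 2.09% and 5.01% without KO replicates 1, 2 and 3. All 10 genes passed the filter on low counts. As the set was chosen with earlier results of these data known, its counts are a description only.

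**Figure D1:**
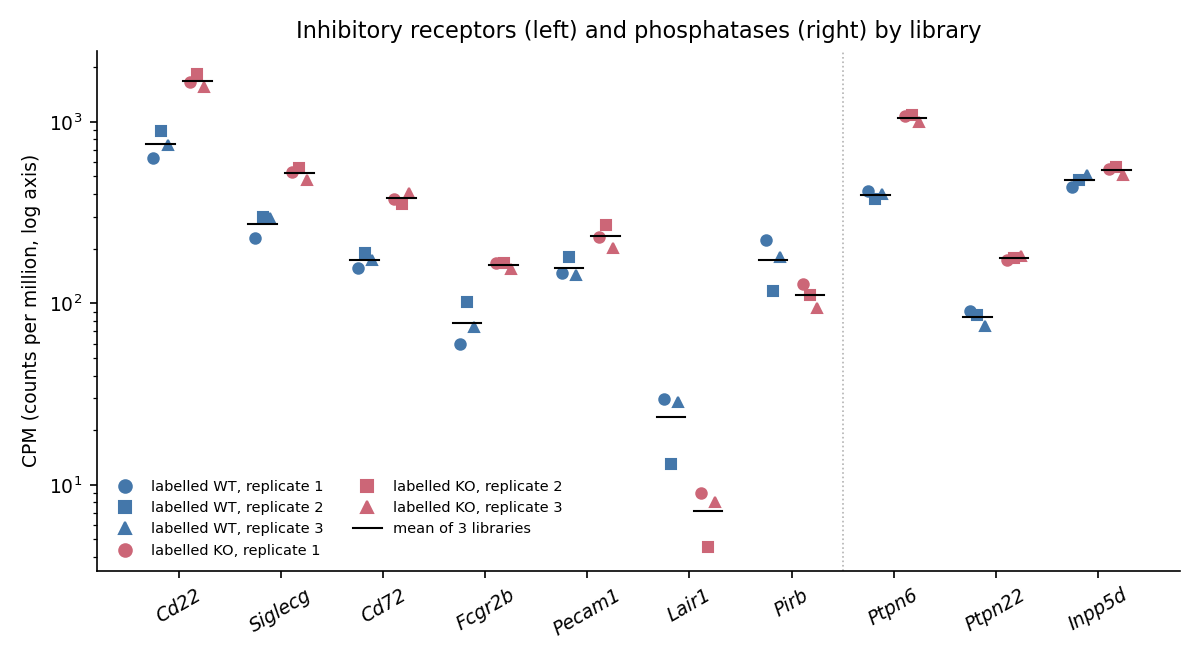
CPM on a log axis for the 10 genes, receptors left of the dotted line and phosphatases right of it. Each point is 1 library, blue for those labelled WT and red for those labelled KO, with the shape giving the replicate number and the black line the mean of 3 libraries. The red points lie above the blue ones for Cd22, Siglecg, Cd72, Fcgr2b, Pecam1, Ptpn6 and Ptpn22, narrowly for Inpp5d, and below them for Lair1, while those of Pirb overlap.

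Cd22, the sialic acid receptor that restrains signalling in resting B cells, spans chromosome 7 from 30865402 to 30880342 on the minus strand (GRCm38, as for all coordinates here). It had 636, 891 and 746 CPM in WT replicates 1, 2 and 3 by label and 1660.2, 1826 and 1550.1 CPM in those labelled KO. The lowest library labelled KO was well above the highest labelled WT. The means were 758 ± 128 and 1679 ± 139 CPM (SD, n = 3), a log2 fold change of 1.15 ± 0.13 (SE, edgeR adjusted p = 0.00244). Cd22 was called in each of the 6 fits that left out 1 library, with log2 fold changes of 1.04 to 1.295. The gene is separated from Ffar1, the targeted gene, by 3838 bp of chromosome 7, and an antisense gene, Gm29439, overlaps its exons. The labels' protocols state no step that marks the strand, so sense and antisense reads over such exons cannot be told apart.

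Siglecg, a receptor related to Cd22 and known for its role in B-1 cells, lies on chromosome 7 at 43408204 to 43418358 (plus strand). Its level was 230.1, 297 and 293 CPM in the libraries labelled WT and 530.4, 554 and 478 CPM in those labelled KO. The groups were apart, and the library labelled WT replicate 1 was the lowest, as it was for Cd22. Siglecg differed by 0.93 ± 0.12 in log2 CPM (SE, edgeR adjusted p = 0.00364), called in 6 of 6 fits without 1 library. Within each library the ratio of Cd22 to Siglecg counts was 2.77 ± 0.23 by label WT and 3.22 ± 0.09 by label KO (SD, n = 3), without overlap. The exact two-sided permutation p was 0.1, the smallest that 3 libraries against 3 can give.

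Cd72, the lectin-like receptor of B cells for semaphorin 4D, lies on chromosome 4 at 43446462 to 43454628 (minus strand). It had 157, 189.9 and 172 CPM in the libraries labelled WT and 376, 353 and 406 CPM in those labelled KO. Every library labelled KO was above every library labelled WT, with little spread in either group. Cd72 thus had a log2 fold change of 1.13 ± 0.10 (SE, edgeR adjusted p = 5.57e-04), called in 6 of 6 fits without 1 library. Its exons overlap those of Tesk1, a kinase gene on the opposite strand, which had 1200 to 1339 counts in the libraries labelled WT and 1293 to 1456 in those labelled KO.

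Fcgr2b, the inhibitory Fc receptor, lies on chromosome 1 at 170958617 to 170976547 (minus strand) and overlaps the antisense gene Gm38204. Its level was 59.3, 101 and 73.6 CPM in the libraries labelled WT and 166, 167 and 154 CPM in those labelled KO. The 3 libraries labelled KO were close together, and WT replicate 2 was the highest of its group. The log2 fold change was 1.05 ± 0.19 (SE, edgeR adjusted p = 0.0211). The call was lost without WT replicate 3, KO replicate 1, KO replicate 2 or KO replicate 3, with adjusted p up to 0.109, and the log2 fold change stayed between 0.89 and 1.301 in all 6 such fits.

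The activating Fc receptors bind the same IgG complexes, mainly on myeloid cells. Of their 4 tested genes 2 were lower in the libraries labelled KO, where 4.81% of all tested genes were called lower. Fcgr4 (log2 fold change -2.18 ± 0.30, SE, adjusted p = 0.00545) and Fcgr1 (-1.69 ± 0.39, adjusted p = 0.0439) passed edgeR's test, while Fcgr3 (-1.56 ± 0.48) and their shared signalling chain Fcer1g (-1.34 ± 0.49) did not (edgeR adjusted p = 0.107 and 0.147). All 4 were called with the replicate block, where 12.8% of all tested genes were called lower. The ratio of Fcgr2b to Fcgr3 CPM was 0.518, 2.24 and 0.758 in the libraries labelled WT and 4.796, 10.7 and 4.20 in those labelled KO. Ratios by label did not overlap (exact two-sided permutation p = 0.1, the smallest possible).

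Pecam1, an adhesion receptor with paired inhibitory motifs, lies on chromosome 11 at 106654217 to 106750628 (minus strand). It had 147, 179 and 144 CPM in the libraries labelled WT and 233, 269 and 201 CPM in those labelled KO. The groups did not overlap, and replicate 2 was the highest in each. In the test its log2 fold change was 0.58 ± 0.13 (SE, edgeR adjusted p = 0.0334). It was called in 2 of 6 fits without 1 library, with adjusted p up to 0.139, the call being lost without WT replicate 1, WT replicate 3, KO replicate 1 or KO replicate 2. Pecam1 is also a gene of endothelial cells and platelets, and the summed CPM of 10 endothelial markers was 20.4 to 65.3 by label WT and 10.1 to 31.8 by label KO. That of 11 platelet and megakaryocyte markers was 33.9 to 98.8 against 14.0 to 63.2 CPM. Both sums overlapped between the labels, and the part of these cells in the Pecam1 values was not tested.

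Lair1, the collagen receptor, lies on chromosome 7 at 4003402 to 4063204 (minus strand) and was the member with the lowest level. It had 29.6, 12.9 and 28.5 CPM in the libraries labelled WT and 8.96, 4.53 and 8.04 CPM in those labelled KO. The groups were apart, and replicate 2 was the lowest in each. The log2 fold change was -1.72 ± 0.39 (SE, edgeR adjusted p = 0.0429), a level 3.30-fold lower in the libraries labelled KO. It was called in 1 of the 6 fits without 1 library, that without WT replicate 2 (adjusted p = 0.00408), and missed the threshold in the other 5, with adjusted p up to 0.130.

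Pirb, the paired immunoglobulin-like receptor B, lies on chromosome 7 at 3711409 to 3720391 (minus strand). Its level was 224, 118 and 179.5 CPM in the libraries labelled WT and 128, 111 and 94.8 CPM in those labelled KO. The groups overlapped, because WT replicate 2 fell below KO replicate 1. The log2 fold change was -0.64 ± 0.25 (SE) and did not pass edgeR's test (adjusted p = 0.156). It was called without WT replicate 2 (edgeR adjusted p = 0.0108) and by DESeq2 (adjusted p = 0.0194), which called 13.4% of all genes. With scaling to pan-B genes Pirb was called lower (edgeR adjusted p = 0.00888), where 72.5% of all tested genes were called lower.

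Pirb shares much of its sequence with the activating Pira genes, so the split of reads among them is uncertain. Pira2 had a log2 fold change of -0.82 ± 0.34, Gm14548 of -0.96 ± 0.46 and Pira1 of -0.09 ± 0.14 (SE), and none of these 3 passed edgeR's test (adjusted p = 0.191, 0.229 and 0.710). With the replicate block Pira2 and Gm14548 were called lower (edgeR adjusted p = 0.00213 and 0.0361). The ratio of Pirb to Pira2 CPM was 1.92 ± 0.28 by label WT and 2.18 ± 0.56 by label KO (SD, n = 3) and overlapped (exact two-sided permutation p = 0.6).

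Lair1 and the macrophage and monocyte markers had a similar order across libraries. The neutrophil sum did not share it, being lowest in replicate 3 of each group, at 798 CPM by label WT and 139 CPM by label KO. The macrophage and monocyte sum was 7424, 3315 and 9050 CPM in WT replicates 1, 2 and 3 by label and 2854, 1528 and 2590 CPM in those labelled KO, and in each group replicate 2 had both the lowest sum and the lowest Lair1 level. Pirb was highest in WT replicates 1 and 3, the libraries with the highest sums. Fcgr2b ran the other way, with its highest levels in the libraries of low sum. Of the 18 markers in the sum, none was at 0 in any library, and Lyz2, the most abundant by mean CPM, was 2412 ± 974 CPM by label WT and 664 ± 200.2 CPM by label KO (SD, n = 3). Of the 18 markers 4 were called lower by label KO in edgeR's test, where 4.81% of all tested genes were, and 14, Lyz2 among them, did not pass. The part of macrophages and monocytes in the Lair1 and Pirb values was not tested.

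**Figure D2:**
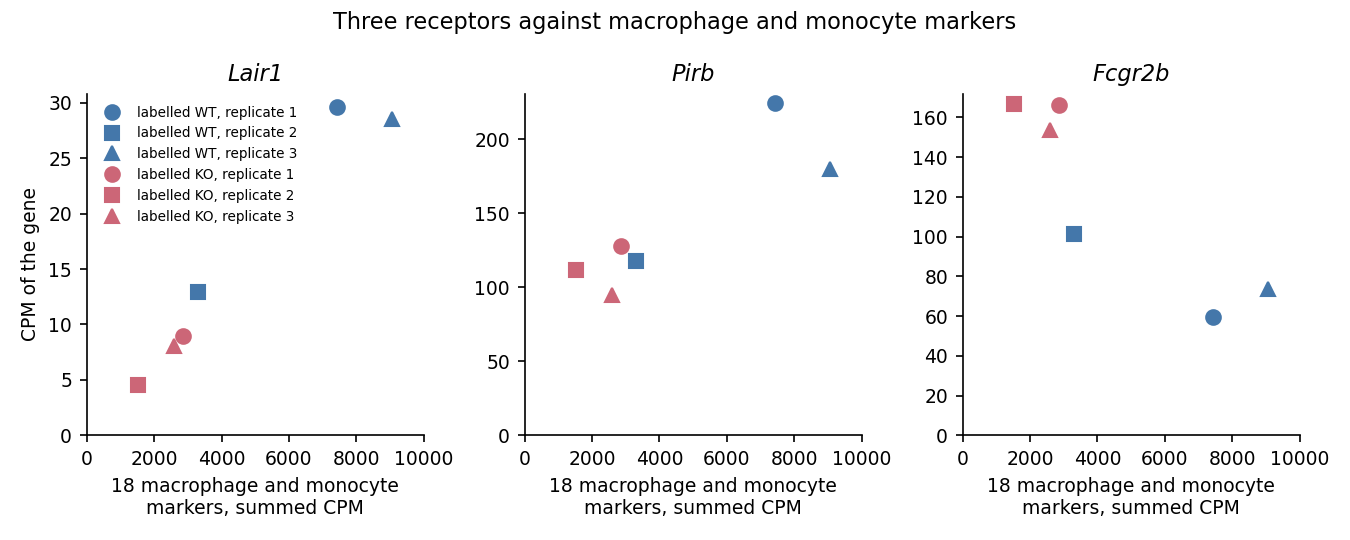
CPM of Lair1, Pirb and Fcgr2b against the summed CPM of 18 macrophage and monocyte markers, on linear axes. Each point is 1 library, blue for those labelled WT and red for those labelled KO, with the shape giving the replicate number. Lair1 lay between 4.53 and 12.9 CPM in the 4 libraries with sums up to 3315 CPM and at 28.5 and 29.6 CPM in the other two, whereas Fcgr2b was highest at low sums.

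Among the phosphatases, Ptpn6 had the clearest difference of the 10 genes relative to its error. Ptpn6 encodes SHP-1, the tyrosine phosphatase that docks at the motifs of CD22, Siglec-G and CD72, and lies on chromosome 6 at 124720707 to 124738714 (minus strand), overlapping the antisense gene Gm20531. It had 415, 375 and 400.2 CPM in the libraries labelled WT and 1077, 1097 and 994 CPM in those labelled KO. The groups were far apart next to their spread. The log2 fold change was 1.41 ± 0.08 (SE, edgeR adjusted p = 1.47e-04), or 2.66-fold, with a range of 1.38 to 1.46 and 6 of 6 calls when 1 library was left out.

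The related phosphatase Ptpn11, which encodes SHP-2, was used as a reference within each library. The ratio of Ptpn6 to Ptpn11 CPM was 3.21, 3.43 and 3.28 in the libraries labelled WT and 7.68, 7.89 and 7.80 in those labelled KO. Ptpn6 also differed relative to Lyn, the kinase that phosphorylates the motifs, from 0.980 ± 0.145 by label WT to 2.01 ± 0.04 by label KO (SD, n = 3). Neither ratio overlapped between the labels, and each had an exact two-sided permutation p of 0.1, the smallest possible.

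Ptpn22, on chromosome 3 at 103859795 to 103912247 (plus strand), had 90.6, 86.1 and 75.0 CPM in the libraries labelled WT and 174, 178 and 182 CPM in those labelled KO. Its libraries labelled KO were close together and well above those labelled WT. Ptpn22 had a log2 fold change of 1.08 ± 0.09 (SE, edgeR adjusted p = 4.44e-04), called in 6 of 6 fits without 1 library.

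Inpp5d, which encodes SHIP-1, the lipid phosphatase that docks at FcγRIIB, lies on chromosome 1 at 87620312 to 87720507 (plus strand). It had 439, 475 and 511 CPM in the libraries labelled WT and 549, 564 and 512 CPM in those labelled KO. WT replicate 3 and KO replicate 3 were almost equal, so the groups were barely apart. The log2 fold change was 0.19 ± 0.09 (SE) and did not pass (edgeR adjusted p = 0.201), with 0.14 to 0.25 and no call when 1 library was left out. The standard error of Inpp5d was close to that of Ptpn6, and its log2 fold change was the smallest in size of the 10.

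**Figure D3:**
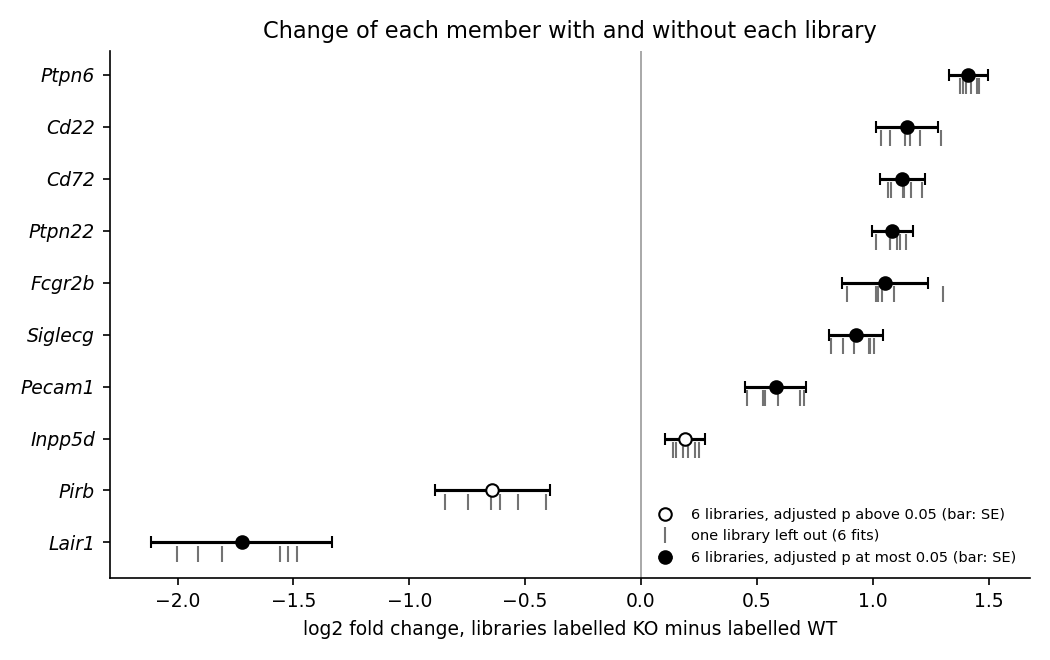
Log2 fold change of each of the 10 genes, KO minus WT by label, with the standard error as the bar. Filled points have an adjusted p of at most 0.05 and open points one above it, and grey ticks give the value with 1 of the 6 libraries left out. Ptpn6 has the highest value, 1.41, and Lair1 the lowest, -1.72, and no tick crosses 0, but with scaling to pan-B genes Pecam1 and Inpp5d lie below 0.

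The choice of scaling moved the values of all genes together. When the libraries were scaled to the summed counts of pan-B genes, the median log2 fold change of all genes shifted by -0.78, or by -0.62 with 1 gene fewer in the sum, an alternative chosen after the values were seen. On the first of these scales Cd22 (0.39), Cd72 (0.36) and Ptpn6 (0.62) remained higher in the libraries labelled KO (edgeR adjusted p = 0.0101, 0.0391 and 0.00864), where 0.736% of all tested genes were called higher and 72.5% lower. Siglecg (0.16), Fcgr2b (0.31) and Ptpn22 (0.30) had the same sign and were not called, while Pecam1 (-0.19) and Inpp5d (-0.59) changed sign. Relative to the shifted median, Cd22 was at 1.16, Ptpn6 at 1.39 and Lair1 at -1.78. Taking off the median removes most of the shift, so these values lie near those without this scaling by construction (1.14, 1.40 and -1.73). Ratios within a library do not depend on scaling, but they do depend on the gene chosen as reference. Cd79b had a log2 fold change of 0.25, below the median of 0.70 over the 11 tested pan-B genes. Relative to the summed pan-B counts Cd22 differed by 0.39 in log2, as given above. The ratio of Cd22 to Cd79b CPM was 0.564, 0.508 and 0.511 in the libraries labelled WT and 0.969, 1.08 and 0.871 in those labelled KO, without overlap (exact two-sided permutation p = 0.1, the smallest possible).

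Levels of different genes were compared on the deposited FPKM, which are scaled to gene length and depth. In the libraries labelled WT the order ran from Cd22 (218 ± 38.4 FPKM, SD, n = 3) and Ptpn6 (208 ± 8.02), whose ranges overlapped, through Cd72 (149 ± 16.5), Siglecg (122.8 ± 18.7) and Inpp5d (104 ± 7.99). Pirb (71.9 ± 21.5 FPKM), Fcgr2b (65.5 ± 17.9) and Pecam1 (52.6 ± 7.18) followed, then Ptpn22 (33.2 ± 2.94) and Lair1 (7.47 ± 2.92). Neighbours from Cd72 to Inpp5d and from Pirb to Pecam1 in this order had overlapping ranges. In the libraries labelled KO, Ptpn6 came first (545 ± 23.5 FPKM), above Cd22 (476 ± 36.4) without overlap. Fcgr2b, at 131 ± 4.70 FPKM, stood above Inpp5d (116 ± 4.72), and Pirb (45.4 ± 6.49) fell to ninth place, above Lair1 (2.24 ± 0.73). Of neighbours in the order by label KO, the ranges of Pecam1 (77.2 ± 10.7) and Ptpn22 (70.9 ± 2.26) alone overlapped.

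The genes whose pattern over the 6 libraries was most like those of Cd22 and Ptpn6 were found by the root mean square difference in log2 CPM, each gene centred on its own mean, among 8649 genes. For Cd22 these were Atp2a3, a calcium pump of the endoplasmic reticulum (difference 0.046), Btla, an inhibitory receptor (0.081), and Lat2, a membrane adaptor (0.083). For Ptpn6 they were Il4ra, the interleukin-4 receptor chain (0.072), Ddit4 (0.109) and Snn (0.119). All 6 libraries entered this measure, so it reflects the difference between the labels as much as the spread within them.

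The transcript table held 6 Cd22 transcripts, and 3 of them carried nearly all counts. XM_006539493 held 63.0%, 56.9% and 64.8% of the gene's estimated counts in the libraries labelled WT and 68.4%, 64.8% and 62.4% in those labelled KO, with overlap. Its own level was 2.34-fold higher in the libraries labelled KO (log2 fold change 1.23 ± 0.12, SE, edgeR adjusted p = 0.0499), a call lost with the replicate block and whenever 1 library was left out (adjusted p up to 0.270). NM_001043317 and XM_006539489 had log2 fold changes of 1.03 ± 0.26 and 0.92 ± 0.18 (SE) and did not pass (edgeR adjusted p = 0.226 and 0.178). The share of XM_006539489 was 18.5 ± 1.3% by label WT and 15.9 ± 1.5% by label KO (SD, n = 3), without overlap (exact two-sided permutation p = 0.1, the smallest possible). XM_006539491, NM_009845 and XM_006539490 had at most 135 counts in any library and did not pass.

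Of the 2 Ptpn6 transcripts, NM_013545 held 98.4 ± 1.3% of the counts by label WT and 99.5 ± 0.3% by label KO (SD, n = 3). It was higher in the libraries labelled KO (log2 fold change 1.42 ± 0.07, SE, edgeR adjusted p = 0.0115), a call lost with the replicate block and in each fit without 1 library (adjusted p up to 0.130). NM_001077705, which starts 5560 bp upstream and has 597 codons instead of 595, had 20 to 183 counts and a log2 fold change of -0.31 ± 0.91 that did not pass (edgeR adjusted p = 0.994). Of 31150 transcripts tested over the whole table, 0.154% were called in either direction and 0.119% were called higher. With the replicate block edgeR called 0 transcripts, while 2896 had an unadjusted p below 0.05. The split of reads among transcripts was estimated upstream, and 54.7% of the deposited transcript counts were not whole.

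Fcgr2b was added to the transcript comparison after its values were seen, because its forms are known to differ between cell types. NM_001077189, with 340 codons, is the longer form known from B cells, and NM_010187, with 293 codons, the shorter form known from macrophages. The longer form held 57.0%, 82.6% and 72.8% of the gene's counts in the libraries labelled WT and 89.4%, 90.9% and 87.3% in those labelled KO. All 3 libraries labelled KO were above all 3 labelled WT (exact two-sided permutation p = 0.1, the smallest possible). The shorter form held 39.4%, 11.5% and 20.3% by label WT and 7.75%, 3.56% and 11.8% by label KO, with overlap. WT replicate 1, with the highest share of the shorter form, also had the lowest Fcgr2b level, 59.3 CPM. Neither form passed edgeR's test as a transcript (adjusted p = 0.216 and 0.962).

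**Figure D4:**
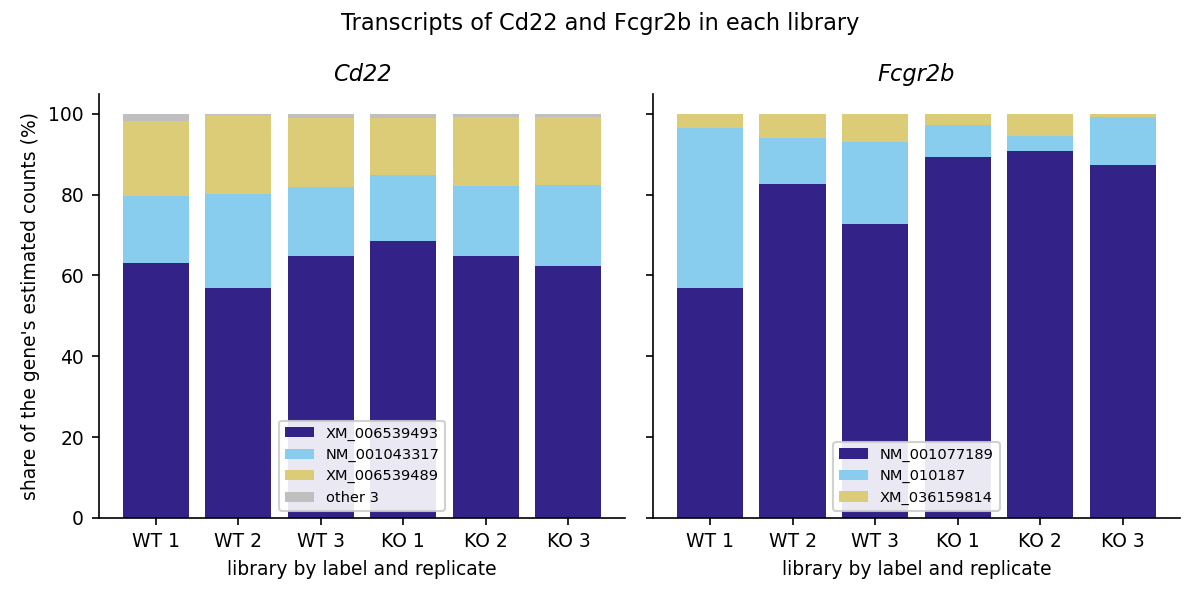
Share of each gene's estimated counts held by its transcripts, in percent, for Cd22 (left) and Fcgr2b (right), with 1 bar per library by label and replicate. The shares of the Cd22 transcripts are similar in the 6 libraries, with XM_006539493 between 56.9% and 68.4%, and the share of NM_001077189 in Fcgr2b runs from 57.0% to 90.9%.

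Promoters are shown for 3 members that share a letter pattern and differ in direction: Cd72, higher in the libraries labelled KO, Lair1, lower there, and Inpp5d, not called. The pattern is GAGGAAG or its reverse complement CTTCCTC, the core of sites of PU.1, a transcription factor of B cells and myeloid cells. Each sequence is the 250 bases before a start site given for the gene in the RefSeq promoter table (GRCm38.p6), 5′ to 3′ on the gene's strand, with the pattern in capitals. The RefSeq genes of Cd72 and Lair1 begin farther upstream, at 43455102 and 4073567, so that these windows lie inside them, and Inpp5d begins at the base after its window.
Cd72, chr4:43454627-43454876, minus strand: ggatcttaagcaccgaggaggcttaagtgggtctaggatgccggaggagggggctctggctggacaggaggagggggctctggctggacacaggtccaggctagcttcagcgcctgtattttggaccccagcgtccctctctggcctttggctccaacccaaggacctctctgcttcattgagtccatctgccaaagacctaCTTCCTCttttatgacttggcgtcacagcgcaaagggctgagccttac
Lair1, chr7:4063205-4063454, minus strand: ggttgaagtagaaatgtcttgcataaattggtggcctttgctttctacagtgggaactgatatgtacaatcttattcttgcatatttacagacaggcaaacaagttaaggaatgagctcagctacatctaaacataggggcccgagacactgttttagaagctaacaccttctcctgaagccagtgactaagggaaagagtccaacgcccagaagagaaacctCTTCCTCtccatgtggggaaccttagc
Inpp5d, chr1:87620062-87620311, plus strand: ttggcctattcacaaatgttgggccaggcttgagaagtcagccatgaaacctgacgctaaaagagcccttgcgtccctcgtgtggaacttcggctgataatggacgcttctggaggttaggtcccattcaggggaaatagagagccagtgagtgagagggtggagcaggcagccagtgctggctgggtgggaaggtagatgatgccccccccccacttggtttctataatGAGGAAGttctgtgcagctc

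On either strand the pattern was found in 6 of the 11 promoters that the table holds for 9 members, 1 each of Cd72, Inpp5d, Lair1, Pirb, Ptpn22 and Siglecg, and in 10.6% of all 32851 promoters of this length. These 6 genes include 3 called higher by label KO, 1 called lower and 2 not called. The octamer ATGCAAAT was in 0 member promoters and 1.6% of all, the pattern CCCNNGGG of EBF1 in that of Cd22 and 11.8% of all, and the pattern CCGGAAG of ETS factors in 0 and 6.91% of all. For Cd22 and Ptpn6 the promoter in the table belongs to a minor transcript, NM_009845 and NM_001077705. A match, or its absence in this window, says nothing about binding.

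Around the 10 genes, other inhibitory receptors moved in both directions. Of 27 tested, 4 were higher in the libraries labelled KO, 4 were lower and 19 did not pass. Of all tested genes 4.55% were called higher and 4.81% lower. The median log2 fold change of the list was -1.11 beside 0.01 for all tested genes. With the replicate block 4 were called higher and 13 lower, where 7.96% and 12.8% of all tested genes were. The higher ones were receptors of lymphocytes: Btla, the receptor for HVEM (565 ± 114 to 1182 ± 57.9 CPM, SD, n = 3, log2 fold change 1.07 ± 0.14, SE), Ceacam1, an adhesion receptor with inhibitory motifs (0.77 ± 0.09), Fcrl1 (0.76 ± 0.11) and Fcrl5 (1.39 ± 0.25). Ceacam1 and Fcrl1 fell just below 0 with scaling to pan-B genes. Of the lower ones, Clec4a2, a lectin of dendritic cells and macrophages, had a log2 fold change of -1.88 ± 0.26 (SE, edgeR adjusted p = 0.00703), and Siglece, Havcr2 and Klrb1b were the others. Several members of this list are genes of myeloid cells, whose macrophage and neutrophil sums were higher in the libraries labelled WT. The list also holds Tyrobp, an activating adaptor, and Fcrl1, known as an activating coreceptor of B cells.

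Adaptors and kinases that carry or restrain inhibitory signals were called higher in 6 of 28 cases and lower in 1, with a median log2 fold change of 0.11. Of all tested genes 4.55% were called higher and 4.81% lower. Map4k1, a kinase that limits antigen receptor signals, had 174 ± 21.3 CPM by label WT and 333 ± 18.2 CPM by label KO (SD, n = 3, log2 fold change 0.94 ± 0.10, SE, edgeR adjusted p = 0.00205). Sla (0.55 ± 0.08) and Sh3bp2 (0.54 ± 0.09), both adaptors, were higher as well, as were Csk, Dok3 and Themis2. Dok2, an adaptor of myeloid and T cells, was lower (-1.69 ± 0.34, edgeR adjusted p = 0.0230). With scaling to pan-B genes Sla and Sh3bp2 changed sign. The replicate block gave 9 of the 28 called higher and 5 lower, beside 7.96% and 12.8% of all tested genes.

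Of 22 other tyrosine phosphatases 3 were higher and 1 was lower, with a median log2 fold change of -0.04: Ptprj (0.70 ± 0.12), Ptprc, which encodes CD45 (0.57 ± 0.13), and Ptp4a3 (0.55 ± 0.14) were the higher ones and Ptpn9 (-0.72 ± 0.14) the lower one (SE). Of 24 other lipid phosphatases 3 were higher, among them Inpp5f (0.49 ± 0.09) and Phlpp2 (0.58 ± 0.12), and 3 were lower, among them Synj1 (-0.61 ± 0.13), with a median of -0.05. Beside both lists, 4.55% of all tested genes were called higher and 4.81% lower. With scaling to pan-B genes Ptprj, Ptprc, Ptp4a3, Inpp5f and Phlpp2 changed sign. Ptpn6 and Ptpn22, at 1.41 and 1.08, lay above every called gene of both lists. With the replicate block 5 tyrosine phosphatases were called higher and 2 of 22 lower, beside 7.96% and 12.8% of all tested genes.

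Over all tested genes 9.37% were called in either direction and 4.55% were called higher. Among 21 ligands and enzymes of ligand synthesis, 1 passed the test, near the share called higher, with a median log2 fold change of -0.17. That was Cmah, the hydroxylase that makes the form of sialic acid preferred by mouse CD22, with 507, 616 and 505 CPM in the libraries labelled WT and 902, 1110.1 and 934 CPM in those labelled KO. All libraries labelled KO were above all labelled WT (log2 fold change 0.86 ± 0.12, SE, edgeR adjusted p = 0.00525). Cd52 (0.47 ± 0.12), a sialylated surface protein, Cd38 (0.49 ± 0.14), which binds PECAM-1 in humans, and St3gal1 (0.30 ± 0.10), a sialyltransferase, did not pass (edgeR adjusted p = 0.0523, 0.0601 and 0.0980), and these 3 changed sign with scaling to pan-B genes. With the replicate block 4 of the 21 were called higher and 5 lower, beside 7.96% and 12.8% of all tested genes.

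Of 19 genes of activating B cell receptor signalling, 8 were called higher by label KO and 2 lower, with a median log2 fold change of 0.35. Of all tested genes 4.55% were called higher and 4.81% lower. Cr2, a complement receptor of B cells (1.55 ± 0.13), and Plcg2, the phospholipase of the B cell receptor (0.73 ± 0.09, SE), were among those of smallest p, and Plcg2 changed sign with scaling to pan-B genes. The lower ones were Syk (-0.51 ± 0.13) and Pik3cd (-0.42 ± 0.08), the kinases that the tyrosine and lipid phosphatases oppose. Whether the inhibitory and the activating genes differed as groups was not tested.

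**Figure D5:**
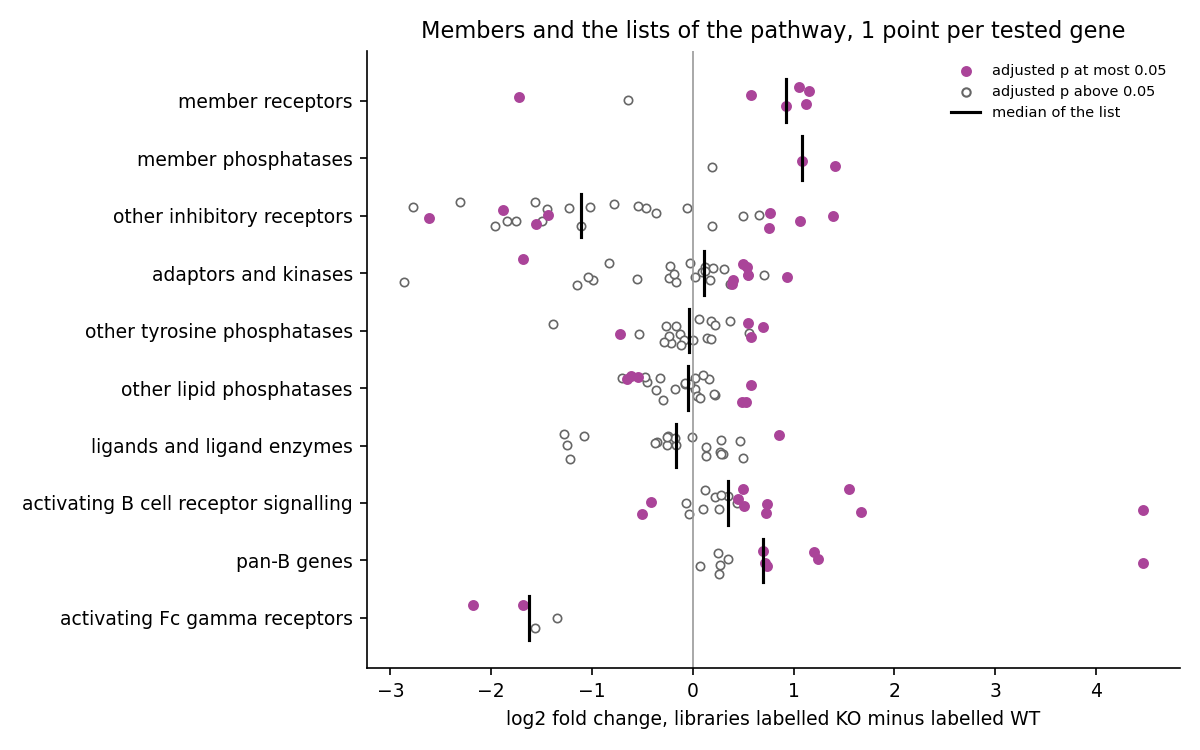
Log2 fold change, KO minus WT by label, of the tested genes of each list, with 1 point per gene, filled where the adjusted p was at most 0.05, and the median of the list as a black line. Vertical scatter within a list carries no value, and some genes, such as Blk, stand in both the activating and the pan-B list. The member phosphatases have a median of 1.08 and the other tyrosine phosphatases one of -0.04, and scaling to pan-B genes moves all points to the left by about 0.78, past 0 for Pecam1, Inpp5d and other low positive values.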

How the data were processed

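RNA of 6 libraries was sequenced in paired ends after oligo(dT) capture, per the labels' protocols. The authors deposited estimated counts per gene and per transcript, not scaled to depth, and FPKM and TPM beside them, per the file headers. Per the submitters' processing notes, the build was mm10, which is GRCm38, and the tools were RSEM 1.3.1, HISAT2 2.0.4 and Bowtie2 2.2.5, with no roles given. A further 12 columns of values per library were not used.

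Estimated counts were rounded; 5.87% of gene values were not whole. Totals were 14907080 to 15461425 counts per library, and a floor of 3 counts was about 0.2 CPM. Floors cover counting error only. The default filter of edgeR 4.0.16 on low counts left 12234 of 16511 genes and 31150 of 55379 transcripts, and scaling used TMM. Fits across the whole table used edgeR's quasi-likelihood F-test on the label, with Benjamini-Hochberg adjustment over all tested features and a threshold of 0.05. Adjusted p-values come from it unless another tool is named. DESeq2 1.42.0 and limma 3.58.1 (on log2(FPKM + 0.1)) were alternatives. CPM are counts over TMM-scaled library sizes. Single ratios and shares used exact two-sided permutation tests over libraries.

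The labels give replicates numbers but do not say that they are separate animals, and p-values then cover only the spread among these libraries, which can be technical. Chi-square per degree of freedom between replicates was 12.1 to 48.1. Both groups carry numbers 1 to 3, and deviations of same-numbered libraries correlated over genes with r = 0.156, 0.407 and 0.197, each library best with its own number. Since each exceeds 0.1, the numbers count as a pairing, found in the data and not in the labels. A fit with the replicate block was the alternative, given where it changed a call or moved a count by over 1.5 times.

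On simulated counts of 12234 genes, the test recovered 22.8% of genes changed 1.5-fold, 47.5% changed 2-fold and 79% changed 4-fold, with 8 false calls, and among 31150 simulated transcripts 12.7% of those changed 4-fold. The 10 genes and the lists were chosen with earlier results of these data known. All 10 are named; from each list of the pathway up to 4 tested genes of smallest p are described, and from each marker list up to 3 of highest mean CPM were taken, of which the text names those beside its results. Fcrl5, Siglece, Havcr2, Klrb1b, Csk, Dok3, Themis2, Syk, Pik3cd, Tesk1 and the Fc and Pira receptors are named beyond that rule. A few of the genes chosen this way are left out of the text. Coordinates come from GENCODE M21 and promoters from RefSeq (GRCm38.p6), where Pecam1 was not matched. No protein sequences were used here.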

Additional observations from a re-analysis of the deposited data

How the results depend on the processing

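The count of genes called was 1146. It was 2535 with the replicate block, 2210 with DESeq2, 567 without the libraries labelled WT replicate 1 and KO replicate 3 together, 8961 with scaling to pan-B genes and 6930 with 1 gene fewer in that sum, and 264 to 2030 without 1 library. Of the 10 genes 8 were called, and 5 to 9 without 1 library, the fewest without WT replicate 3, KO replicate 1 or KO replicate 2. Of transcripts 48 were called: 109 with no low count filter, 246 with at least 10 counts in every library, 0 with the replicate block and 0 without WT replicate 1 and KO replicate 3 together (unadjusted p below 0.05 for 2896 and 3226), 4183 and 90 with the pan-B scaling over the full sum and with 1 gene fewer, and 1 to 5 without 1 library. The block changed no call among the 10 genes.

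Scaling to pan-B genes reversed the sign of log2 fold changes, given for the full sum and then with 1 gene fewer in it: Inpp5d -0.59 and -0.42, Pecam1 -0.19 and -0.023, Cd38 -0.27 and -0.099, Cd52 -0.29 and -0.13, Inpp5f -0.29 and -0.12, Phlpp2 -0.21 and -0.036, Ptp4a3 -0.21 and -0.036, Ptprc -0.22 and -0.055, Sh3bp2 -0.25 and -0.085, Sla -0.23 and -0.061, St3gal1 -0.50 and -0.33. The full sum alone reversed Ceacam1 (-0.024), Fcrl1 (-0.013), Plcg2 (-0.054) and Ptprj (-0.11). This scaling lowers all genes together because the pan-B counts were higher by label KO, at 229422 to 253359 against 124310 to 171663 by label WT. A reversed sign describes a smaller difference than that of the pan-B sum. Among rare transcripts NM_009845 went to 0.71 with the replicate block and -1.16 to 0.27 without 1 library, and NM_001077705 to -0.79 to 0.55 without 1 library. Over the alternatives for the 10 genes, 122 log2 fold changes kept their sign and their side of the threshold, 20 lost the call, 4 gained one and 4 reversed. Of the list counts and medians, 233 of 360 stayed within 1.5 times or the spread. Depth limits Lair1 most, at 68 to 457 counts per library. With 3 libraries per group exact tests cannot go below 0.1.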

Other observations

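Genes that rise during tissue dissociation and cell stress were measured as a sign of sample handling. All 7 tested had negative log2 fold changes, KO minus WT by label, and 3 of them, Fos, Egr1 and Atf3, were lower in the libraries labelled KO (edgeR's quasi-likelihood test). Of all 12234 tested genes 5931 had negative values and 4.81% were called lower. Egr1, an immediate-early gene that B cell receptor signals also induce, had 71.9, 63.4 and 74.1 CPM in the libraries labelled WT and 46.7, 43.5 and 31.4 CPM in those labelled KO. Fos had 37.0, 12.6 and 24.6 CPM by label WT and 7.48, 3.79 and 5.29 CPM by label KO. The heat shock gene Hspa1a stood at 799 CPM in the library labelled WT replicate 3 and between 16.2 and 137 CPM in the other 5 libraries. The relation of these genes to the inhibitory receptors was not tested.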
